A study of Mus musculus with 15 samples.

Results

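RNA of 15 mouse brain tumours was compared between the 5 with the most and the 5 with the fewest transcripts of mature cortex. The tumours were selected on a cortex score, the mean of log2(CPM + 1) over 3 genes, where CPM stands for the reads of a gene scaled to the same total of reads in genes in every library and 1 is a pseudocount. The 3 genes were Snap25 and Syt1, which encode synaptic proteins of neurons, and Mobp, which encodes a protein of myelin. The 5 tumours between them are given beside the 2 groups. All tumours arose in Nestin Tv-a mice on a C57BL/6 background with floxed p53. DF-1 cells, a chicken line that sheds avian RCAS virus, delivered RCAS-Cre, RCAS-PDGFA and H3.3 fused to GFP, so every group was given Cre, PDGFA and an added histone. The virus enters only cells that make the Tv-a receptor under the Nestin promoter, so the brain around a tumour keeps its own cells. Tumours were taken from the frontal cortex at the functional end point, and no age or sex is labelled. In 8 of the tumours Atrx was floxed as well, and of these 4 received the mutant histone H3.3G34R (called ATRXfl_G34R) and 4 the unmutated H3.3WT (ATRXfl_WT). In the other 7 Atrx was intact, and 3 received H3.3G34R (p53_G34R) and 4 received H3.3WT (p53_WT). No label says that each library came from a separate mouse, so the spread between libraries may be partly technical.

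As background, a piece of tumour tissue holds tumour cells together with neurons, astrocytes, oligodendrocytes, microglia and vessels of the host. PDGFA acts on the receptor encoded by Pdgfra, which marks oligodendrocyte progenitors, and tumours driven by it tend to keep progenitor genes such as Sox10, Olig2 and Cspg4. Mature neurons and myelinating oligodendrocytes do not divide and express genes that such progenitors lack or keep low. In bulk RNA of this kind, fewer cells of a type and less RNA per cell cannot be told apart.

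The starts of a myelin gene of the score, a neuronal gene of the score and the PDGF receptor gene are shown because Mobp and Syt1 helped to choose the tumours and Pdgfra encodes the receptor for the driver. Each run of 215 bases ends 36 bases before the RefSeq start (GRCm38.p6, the mm10 assembly), 5′ to 3′ on the strand of the gene. Capitals mark matches on either strand to ACAAAG, the core bound by SOX proteins such as Sox10, or to CCAAT, the CCAAT box. These motifs do not overlap each other, and they were chosen after the sequences had been looked at. The RefSeq table used holds no entry for Snap25, and the first of 2 Syt1 starts is shown.
Mobp promoter, chr9:120149492-120149706, plus strand: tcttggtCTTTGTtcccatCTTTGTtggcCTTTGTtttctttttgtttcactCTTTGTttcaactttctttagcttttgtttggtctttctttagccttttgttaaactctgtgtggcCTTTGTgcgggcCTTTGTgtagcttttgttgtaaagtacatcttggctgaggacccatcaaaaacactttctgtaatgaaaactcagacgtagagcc
Syt1 promoter, chr10:109011011-109011225, minus strand: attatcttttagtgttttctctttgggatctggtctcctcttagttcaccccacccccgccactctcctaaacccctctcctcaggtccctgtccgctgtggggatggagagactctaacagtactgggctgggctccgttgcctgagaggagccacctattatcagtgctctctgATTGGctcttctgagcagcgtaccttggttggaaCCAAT
Pdgfra promoter, chr5:75152001-75152215, plus strand: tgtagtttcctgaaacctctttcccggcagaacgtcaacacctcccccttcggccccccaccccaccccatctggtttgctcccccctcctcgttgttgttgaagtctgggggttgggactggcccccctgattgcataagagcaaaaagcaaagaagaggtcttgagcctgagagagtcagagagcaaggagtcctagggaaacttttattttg
The Mobp run held 6 matches to ACAAAG and none to CCAAT. Of 32851 promoters of the same length, 14.5% held at least 1 match to ACAAAG, and Mobp was the 1 promoter with 6 or more. The Syt1 run held 2 matches to CCAAT, a motif found in 30.4% of promoters. The Pdgfra run held neither motif. A match describes the letters and says nothing of binding in these tumours.

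The score spread widely at its upper end and little below it. It stood at 9.83 in p53_WT replicate 3 and at 7.49 in ATRXfl_G34R replicate 3. Next came p53_WT replicate 4 (5.26), ATRXfl_G34R replicate 4 (5.22) and ATRXfl_G34R replicate 1 (3.57). The 5 tumours between lay from 2.71 to 3.57. The 5 of lowest score were p53_G34R replicate 1 (2.48), ATRXfl_G34R replicate 2 (2.31), ATRXfl_WT replicate 3 (2.22), ATRXfl_WT replicate 1 (2.15) and ATRXfl_WT replicate 2 (1.89). The edge of the upper group was close to a tie, since ATRXfl_G34R replicate 1, just inside, exceeded p53_WT replicate 1, just outside, by 0.0044. At the lower edge p53_WT replicate 2, just outside, exceeded p53_G34R replicate 1 by 0.22. These values chose the tumours and are a description only.

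Snap25 (ENSMUSG00000027273; mm10 chromosome 2, 136713453 to 136782428), which helps fuse synaptic vesicles, stood at 1246, 127, 32.98, 27.5 and 36.6 CPM in the 5 tumours of highest score, in that order. In the 5 of lowest score it stood at 6.87, 26.4, 10.3, 8.59 and 1.96 CPM. Syt1 (ENSMUSG00000035864; chromosome 10, 108497650 to 109010982), the calcium sensor of those vesicles, stood at 1046, 87.5, 62.5, 11.7 and 6.58 CPM in the first group. In the second it stood at 3.11, 3.25, 2.84, 1.81 and 0.416 CPM. Mobp (ENSMUSG00000032517; chromosome 9, 120149707 to 120181484) stood at 572, 515, 25.1, 142 and 4.91 CPM in the first group and at 4.37, 0.0369, 1.30, 2.24 and 11.2 CPM in the second. Each of the 3 genes was highest in p53_WT replicate 3 and next highest in ATRXfl_G34R replicate 3. Below those 2 tumours the genes ranked the tumours differently. ATRXfl_WT replicate 2 was last for Snap25 and Syt1 but of rank 5 for Mobp, and p53_G34R replicate 2 was of rank 3 for Snap25 and rank 14 for Mobp. By these 3 genes, which chose the tumours, the name "rich in cortex transcripts" described 2 tumours well and the other 3 of the upper group weakly. Cortical projection neuron genes lay a median of 4.1 above the mean of the lowest 5 in p53_WT replicate 3. In ATRXfl_G34R replicate 3 they lay only 0.44 above it. Its mature neuron, myelin and astrocyte genes lay a median of 1.7, 1.74 and 1.2 above, beside 4.21, 1.87 and 2.08 in p53_WT replicate 3. How well the name described ATRXfl_G34R replicate 3 beyond the score genes thus differed by list. The groups are therefore called the 5 tumours of highest score and the 5 of lowest score, and results are given with and without the 2 highest.

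**Figure D1:**
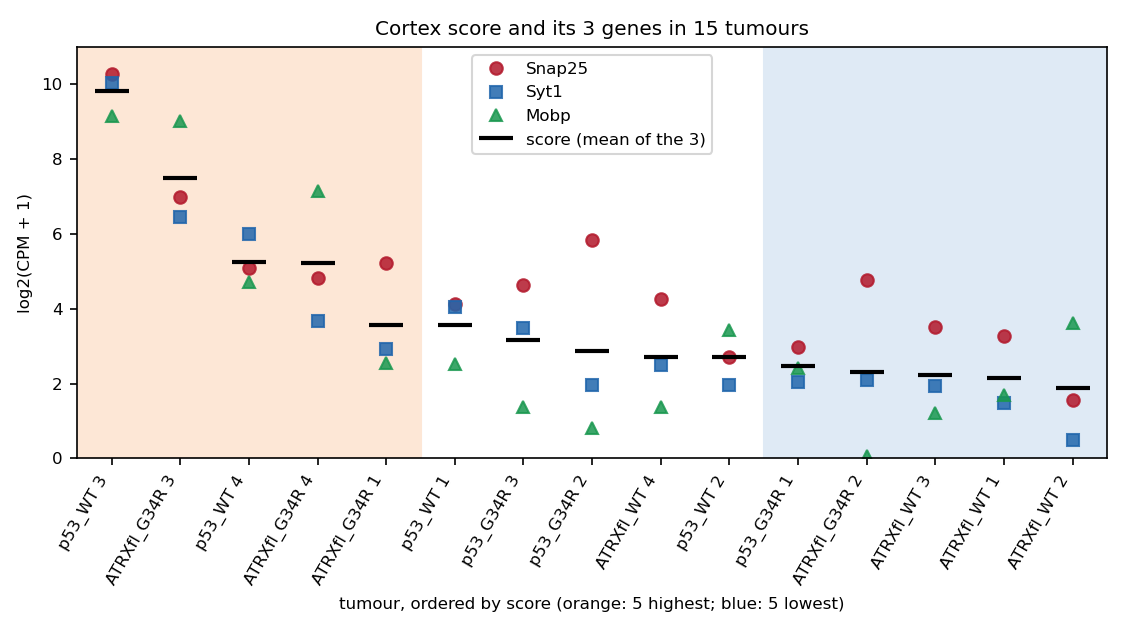
The vertical axis gives log2(CPM + 1) of Snap25, Syt1 and Mobp (coloured points) and the score (black bar) for each of 15 tumours on the horizontal axis, ordered by score. The score drops from 9.83 to 7.49 and then to 5.26, and below rank 4 the tumours lie between 1.89 and 3.57.

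Libraries held 22807315 to 35679129 reads in genes, and p53_WT replicate 3 was the deepest. A value of 0 CPM means no read, which allows up to 3 reads, or 0.0841 to 0.132 CPM by library, and covers counting error only. The 5 of highest score were 3 ATRXfl_G34R and 2 p53_WT tumours, and the 5 of lowest score were 3 ATRXfl_WT, 1 ATRXfl_G34R and 1 p53_G34R. With no ATRXfl_WT or p53_G34R tumour in the upper group, score and genotype combination cannot be fully told apart. Atrx-floxed tumours made up 3 of the upper and 4 of the lower group. Tumours with H3.3G34R made up 3 of the upper and 2 of the lower. Sample titles of 4 upper tumours share their first code in pairs (p53_WT replicates 3 and 4, ATRXfl_G34R replicates 1 and 4). So do p53_G34R replicates 2 and 3, of the tumours between. A second code in the titles differs in every library. What the codes stand for is not given in the sources used here. Xist, a transcript of the inactive X chromosome, stood at 552 to 1156 CPM in 3 of 5 upper tumours and at 380 and 799.6 CPM in 2 of 5 lower ones, and at or below 1.008 CPM in the other 5. The part of these features in the results was not tested.

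Of 15397 genes with a mean of at least 1 CPM over the 15 tumours (score genes left out), 45 were higher in the upper group and 6 were lower. These are the genes whose groups did not overlap and whose mean log2(CPM + 1) differed by at least 1, which is 2-fold. They make up 0.292% and 0.039% of genes. Without the 2-fold condition, 64 genes (0.416%) lay wholly above and 47 (0.305%) wholly below. Because every gene comes from the libraries that the score ranked, no test was made, and nothing is read from these shares. The filter takes the mean of all 15 tumours, so a gene near 0 in most of them can pass through 1 high tumour. With no filter, 47 genes were higher and 6 lower. The median difference over all genes was 0.00. The genes above were led by 1 tumour. p53_WT replicate 3 was the highest of all 15 tumours for 37 of the 45 genes, ATRXfl_G34R replicate 3 for 4 and other tumours for 4. Over all 15397 genes, p53_WT replicate 3 was the highest for 2612 and ATRXfl_G34R replicate 3 for 327. Over the 45 genes the median difference from the mean of the lowest 5 was 5.13 in p53_WT replicate 3, 3.09 in ATRXfl_G34R replicate 3 and 0.80 to 1.09 in the other 3. In the tumours between, it lay from -0.01 to 0.19. Scaling moved the balance of calls, since TMM gave 24 higher and 23 lower genes and the median of ratios gave 21 and 23. Both scalings moved ATRXfl_G34R replicate 1 out of the upper group.

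Of the 45 genes above, 5 were on a list of a neuron class (Gad2, Sst, Slc32a1, Lamp5 and Slc17a6), 1 on the myelin list (Ermn) and 1 on the microglia list (Siglech). Gad2 (chromosome 2, 22622205 to 22693874), an enzyme that makes the transmitter GABA, stood at 301, 36.8, 1.81, 2.72 and 2.47 CPM in the 5 tumours of highest score. In the lowest 5 it was at 0.125 CPM or below, with 2 of them at 0. The difference was 3.66 on the log2(CPM + 1) scale (SE 1.32). The transporter that loads GABA into vesicles, Slc32a1, stood at 97.3, 15.1, 0.749, 4.30 and 1.53 CPM against at most 0.0760 CPM. Sst, the peptide of a class of cortical interneurons, stood at 157, 35.8, 1.26, 1.71 and 1.31 CPM against at most 0.148 CPM. In each of these genes the last 3 tumours of the upper group stood at 0.749 to 4.30 CPM, above a lower group at or near 0.

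Other leading genes of the 45 named here, apart from Resp18, were also highest in p53_WT replicate 3 and next highest in ATRXfl_G34R replicate 3, with no common order below. Tmem130 stood at 139, 78.5, 4.81, 9.38 and 9.60 CPM, and at 0.0667 to 2.98 CPM in the lowest 5. The non-coding RNA host gene Snhg11 stood at 1407, 398, 25.6, 33.8 and 27.8 CPM, against 1.77 to 24.02 CPM. ATRXfl_WT replicate 4, of the tumours between, held 35.1 CPM of Snhg11, within the range of the upper group. Kcnk9, a potassium leak channel, stood at 108, 38.7, 1.03, 2.59 and 2.80 CPM, against at most 0.222 CPM. Nrsn1, Phyhip, Cpne6, Nrsn2, Resp18 and Cck also led, with differences of 3.41, 3.18, 3.15, 2.96, 2.88 and 2.76 on the log2 scale. Nrsn1 stood at 1.16 to 6.17 CPM in the tumours between, which overlapped the 3.02 to 408 CPM of the upper group. Cck, a neuropeptide, was at 256 and 10.7 CPM in the 2 highest tumours but at 1.89, 0.570 and 0.0364 CPM in the next 3. Resp18 was no marker of the upper group as a whole, since p53_G34R replicate 2, of the tumours between, held 62.3 CPM, more than any of the upper 5.

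Mature neuron and synapse genes were higher on average in all 30 of 30 compared, with a median log2 difference of 1.51 beside 0.00 over all genes, and 0 of them met the call. Camk2a, a kinase of excitatory synapses, stood at 2185, 205, 19.0, 5.26 and 3.20 CPM in the upper group and at 3.04, 1.22, 1.07, 5.14 and 0.999 CPM in the lower. Slc17a7, the vesicular glutamate transporter of cortical projection neurons, stood at 1344, 12.01, 7.76, 5.17 and 0.218 CPM, against 0.355 to 1.52 CPM. The glutamate receptor gene Gria1 differed by 3.43 (SE 1.23) and the vesicle protein gene Rph3a by 3.41 (SE 1.11). p53_WT replicate 3 was the highest tumour for 29 of the 30 genes, and for 2612 of all 15397. The list took 1.68% of its reads, against 0.117% to 0.347% in the other upper tumours and 0.121% to 0.220% in the lowest 5. Without the 2 tumours of highest score the median was 0.41, and 24 of 30 members stayed above 0.

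Genes of several neuron classes were higher on average in the upper group. Genes of cortical projection neurons were higher in 13 of 15, with a median of 0.92, and 1 was called (Lamp5). Inhibitory interneuron genes were higher in 11 of 11 (median 1.04), with 3 called (Gad2, Sst and Slc32a1). All 11 listed genes passed the filter, Vip only through p53_WT replicate 3 (34.9 CPM, and at most 0.355 CPM elsewhere). Striatal neuron genes were higher in 10 of 11 (median 1.15), with 0 called. Without the 2 highest tumours these medians were 0.19, 0.24 and 0.21. p53_WT replicate 3 exceeded the mean of the lowest 5 by a median of 4.10, 3.95 and 3.93 over the 3 lists, and ATRXfl_G34R replicate 3 by 0.44, 1.07 and 0.35. Neurod2, a transcription factor of excitatory cortical neurons, stood at 86.4 CPM in p53_WT replicate 3 and at 0.338 CPM in ATRXfl_G34R replicate 3. Tbr1, which marks deep-layer neurons, stood at 92.0 and 1.54 CPM. Drd2, the dopamine receptor of a class of striatal neurons, stood at 59.5 and 0.225 CPM. Penk, the precursor of enkephalin, was high in both, at 491 and 78.8 CPM, against 0.267 to 2.74 CPM in the lowest 5. Members of a list differed in ATRXfl_G34R replicate 3: the interneuron genes Vip and Htr3a stood at 0.0751 and 0.676 CPM there, and the projection neuron gene Rasgrf2 at 41.6 CPM. Both tumours lay above all other 13, with means at least 2-fold apart, for 5 of 15 projection neuron and 4 of 11 interneuron genes. Over all genes this held for 501 of 15397 (3.25%), and the score that ranked these tumours holds neuronal genes.

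Neurons of other regions gave small lists. Thalamic genes (2 of 5 higher, median -0.07) held 1 call, the glutamate transporter gene Slc17a6, at 16.4, 21.3, 0.394, 1.14 and 0.873 CPM against at most 0.0334 CPM. Hippocampal genes (3 of 3 higher, median 0.19), olfactory bulb genes (1 of 2, 0.57) and cerebellar genes (0 of 2, -0.64) had too few members above 1 CPM to describe. The cerebellar gene En2 was at 0.196 CPM in p53_WT replicate 3 and at 10.8 to 34.3 CPM in the other 14. Early neuron genes were higher in 7 of 10 (median 0.25), led by Stmn2, a protein of growing axons, with 361 and 46.2 CPM in the 2 highest tumours and 0.125 to 3.65 CPM in the lowest 5.

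Myelin genes of mature oligodendrocytes were higher in 13 of 20, with a median of 0.68 and 1 call. That gene was Ermn, a cytoskeletal protein of myelin, at 34.3, 53.1, 3.43, 3.29 and 1.49 CPM against 0.0355 to 0.934 CPM. Mbp (ENSMUSG00000041607), the myelin basic protein gene, stood at 1407, 1610, 127, 606 and 83.6 CPM. In the lowest 5 it stood at 266, 117, 176, 263 and 87.8 CPM, so the groups overlapped. Mog, Hapln2 and Mag, which encode surface and matrix proteins of myelin, differed by 2.05 (SE 0.97), 1.73 (SE 0.70) and 1.60 (SE 1.15). Some members did not differ in this way. Cnp stood at 304 and 583 CPM in the 2 highest tumours beside a mean of 336 CPM in the lowest 5 and differed by -0.04, and Enpp2 differed by -0.44, both named after their values were seen. Without the 2 highest tumours the median of the list was -0.15, with 8 of 20 members above 0.

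The balance of neuron and myelin transcripts differed between the 2 highest tumours. p53_WT replicate 3 gave 1.68% of reads to the mature neuron list and 0.373% to the myelin list. ATRXfl_G34R replicate 3 gave 0.347% and 0.433%. ATRXfl_G34R replicate 4, the fourth by score, gave 0.117% and 0.232%, the lowest neuronal share of all 15 tumours beside a myelin share exceeded only by those of the 2 highest tumours. p53_WT replicate 4, the third by score, gave 0.234% and 0.0948%. In the tumours of ranks 3 and 4 a close score (5.26 and 5.22) was thus reached from Syt1 in p53_WT replicate 4 and from Mobp in ATRXfl_G34R replicate 4.

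Astrocyte genes were higher in 18 of 20, with a median of 0.99 and 0 calls. Aldh1l1, a folate enzyme used as an astrocyte marker, stood at 238, 38.5, 15.5, 8.86 and 3.31 CPM, against 7.10, 1.07, 2.40, 2.77 and 8.28 CPM. Gfap, the filament of reactive astrocytes, stood at 4547, 1027, 402, 773 and 198 CPM, against 429, 142, 206, 719 and 294 CPM. The water channel gene Aqp4 differed by 1.67 (SE 0.79) and the glutamate transporter gene Slc1a2 by 1.33 (SE 0.66). The median without the 2 highest tumours was 0.34, with 16 of 20 above 0. Resident microglia genes were higher in 9 of 10 (median 0.73, and 0.24 without the 2 highest). Siglech, a receptor of microglia, was called at 13.7, 4.28, 1.497, 8.59 and 1.53 CPM against 0.200 to 0.874 CPM. Of the tumours between, p53_WT replicate 1 held 7.55 CPM of Siglech and ATRXfl_WT replicate 4 held 4.83 CPM, within the range of the upper group. Recruited macrophage genes were higher in 7 of 12, with a median of 0.06.

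**Figure D2:**
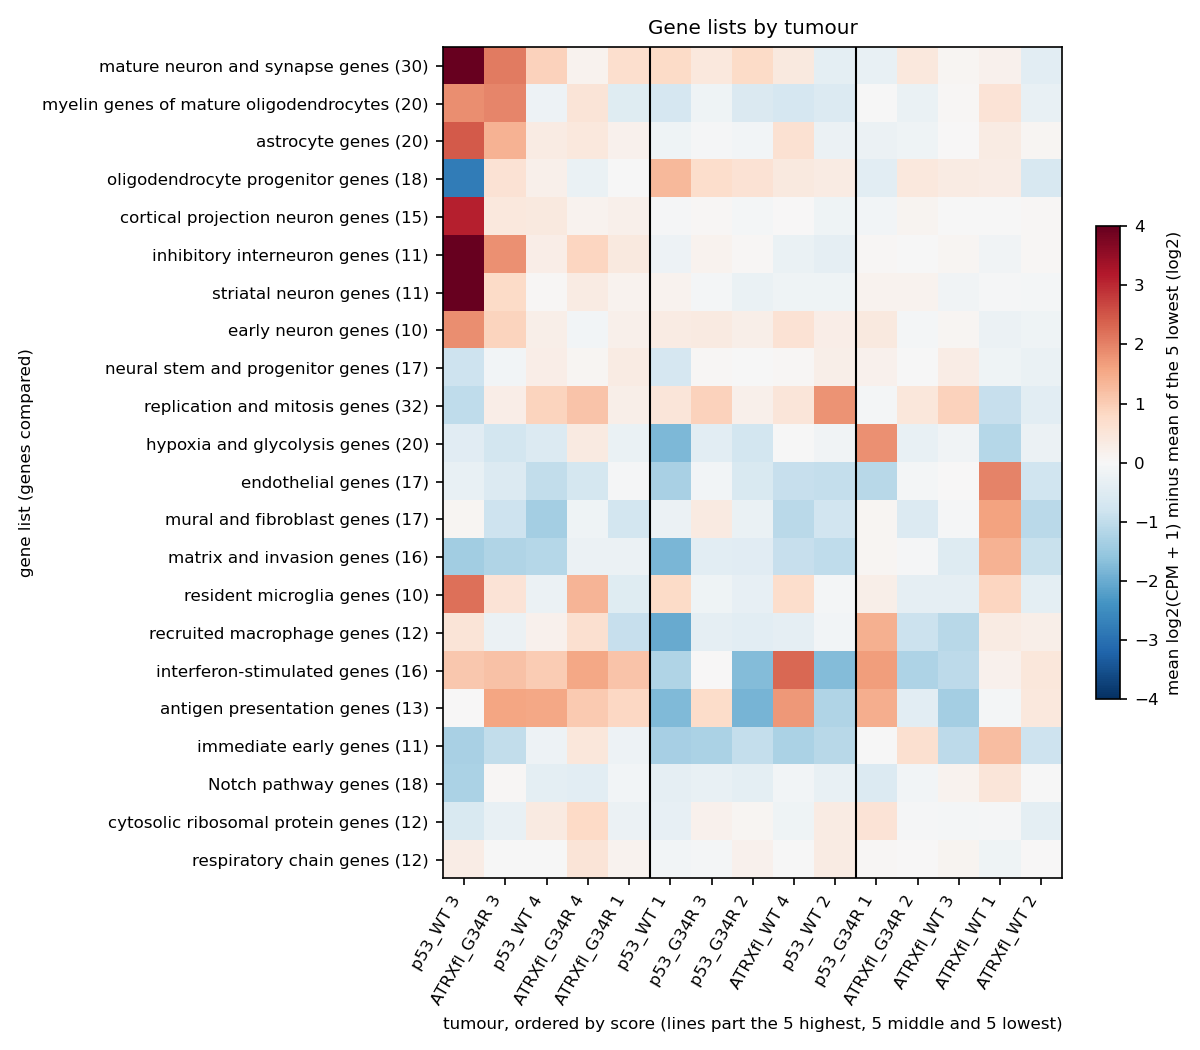
Each row is a gene list with at least 10 genes compared (number in brackets) and each column a tumour in order of score. Colour gives the mean log2(CPM + 1) of the list minus its mean in the 5 tumours of lowest score, from blue (lower) to red (higher), with the scale ending at 4 in either direction. Rows of mature, projection, inhibitory and striatal neuron genes are deep red in p53_WT replicate 3, and the early neuron row is paler there. The oligodendrocyte progenitor row is deep blue in that tumour alone.

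The 6 genes below were Itga1, Nkd2, Col5a1, Tns2, Rbpms and Lgals4, and 0 of them were on the list of oligodendrocyte progenitor genes. Itga1 (chromosome 13, 114953096 to 115101964), a collagen-binding integrin, stood at 41.0, 92.5, 119, 88.1 and 126 CPM in the 5 tumours of highest score. In the lowest 5 it stood at 242, 152, 155, 588 and 149 CPM, and it differed by -1.32 (SE 0.47). Col5a1 (chromosome 2, 27886425 to 28039514), a fibrillar collagen chain, stood at 59.9, 54.5, 69.2, 45.7 and 51.2 CPM, against 211, 75.1, 89.8, 124 and 212 CPM, and differed by -1.22 (SE 0.32). Tns2 (chromosome 15, 102100413 to 102116401), which links integrins to the cytoskeleton, stood at 45.1, 57.0, 28.3, 33.2 and 46.2 CPM, against 80.2, 87.4, 59.6, 193 and 85.2 CPM. It differed by -1.17 (SE 0.33). Itga1 and Tns2 were by far highest in ATRXfl_WT replicate 1, and Col5a1 in p53_G34R replicate 1 and ATRXfl_WT replicate 2.

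Nkd2 (chromosome 13, 73818534 to 73847631), an inhibitor of Wnt signalling, stood at 2.64 to 11.1 CPM in the upper and 12.1 to 47.2 CPM in the lower group. Rbpms (chromosome 8, 33782643 to 33929863), an RNA-binding protein, stood at 3.74 to 10.6 and 10.7 to 55.5 CPM. Lgals4 (chromosome 7, 28833854 to 28841708), a galectin below 5 CPM on average and so outside the rule for named genes, stood at 0.709 to 2.33 and 2.62 to 11.99 CPM. ATRXfl_WT replicate 1 was the highest of all tumours for 4 of the 6 genes, and p53_WT replicate 3 was the lowest for 2. Over all 15397 genes these numbers were 1579 and 3686. These 6 genes, unlike the genes above, did not differ most in the 2 tumours of highest score. Their median difference from the mean of the lowest 5 was -1.07 in p53_WT replicate 3, -1.20 in ATRXfl_G34R replicate 3 and -1.07 to -1.30 in the other 3. It was -0.33 to -1.32 in the tumours between, and within the lower group it ran from -0.70 in ATRXfl_G34R replicate 2 to 1.06 in ATRXfl_WT replicate 1. Leaving out ATRXfl_WT replicate 1 gave 9 genes below, of which 3 were among the 6, and leaving out p53_WT replicate 3 gave 16, of which 5 were. Only 2 of the 6 stayed under TMM or median-of-ratios scaling.

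Genes with a mean of at least 50 CPM whose groups did not overlap, but with smaller differences, included Rnf144a, a ubiquitin ligase (-0.9973, SE 0.30), and the clock gene Per1 (-0.98, SE 0.35). They also included the kinase genes Ick (-0.71), Map4k4 (-0.56) and Map3k3 (-0.54), Zc3h7a (-0.66), Gclm (-0.42), an enzyme of glutathione synthesis, and Calcoco1 (-0.37). Map4k4 stood at 224, 478, 466.2, 505 and 468 CPM, against 643, 522, 570, 566 and 765 CPM. Snapin, a binding partner of SNAP25 named for that role, also lay lower, at 49.3 to 62.4 CPM against 62.9 to 86.3 CPM (-0.32, SE 0.11). Klf11 (-0.84), Afap1 (-0.82) and Pskh1 (-0.77), with a mean under 50 CPM, also did not overlap.

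**Figure D3:**
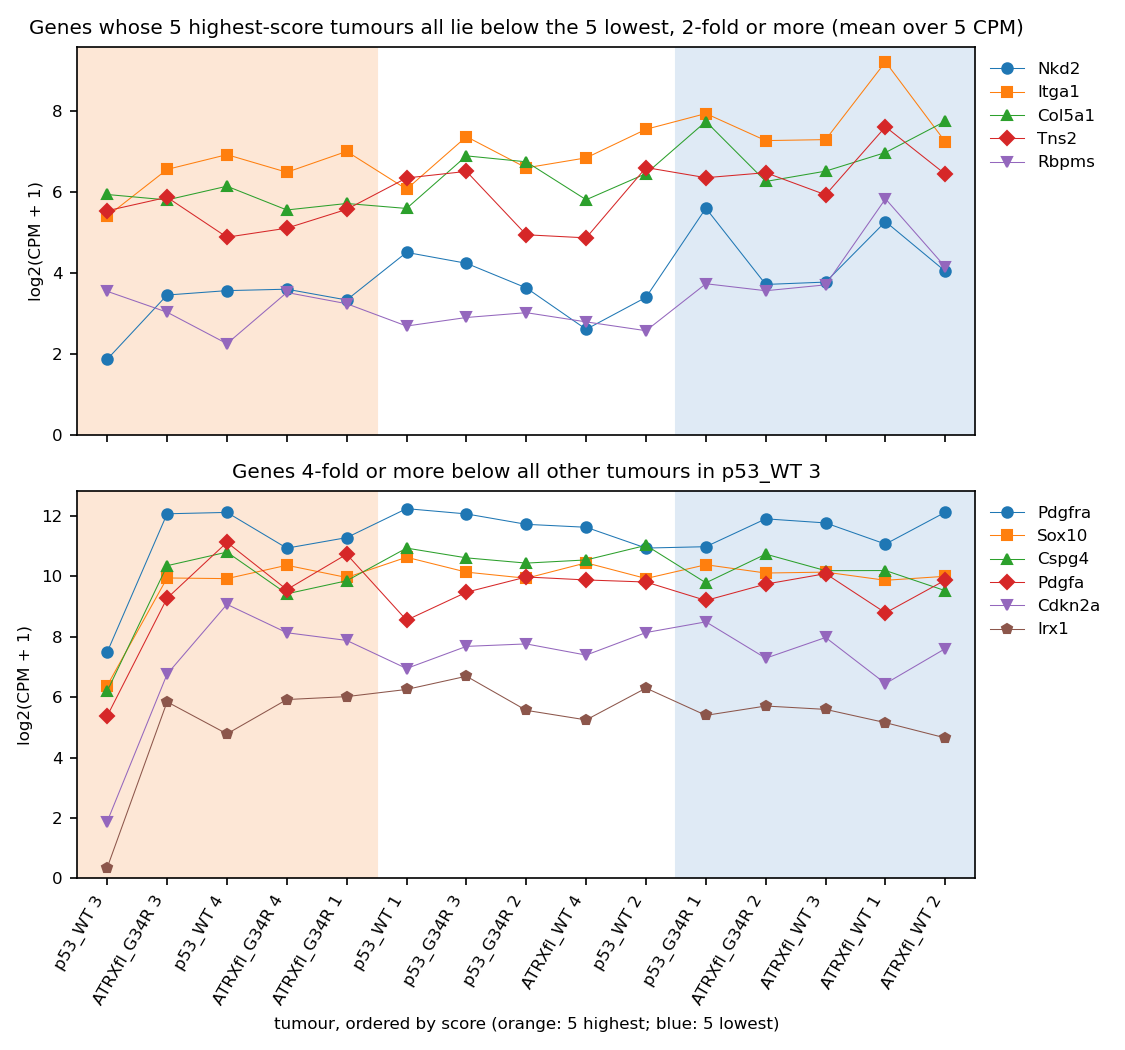
Both panels give log2(CPM + 1) by tumour in order of score, with orange behind the 5 highest and blue behind the 5 lowest. The upper panel shows 5 of the 6 genes that lay lower in the upper group (Lgals4, under 5 CPM, is left out), and ATRXfl_WT replicate 1 is highest for Itga1, Tns2 and Rbpms. The lower panel shows Pdgfra, Sox10, Cspg4, Pdgfa, Cdkn2a and Irx1, each with its lowest value in p53_WT replicate 3 and no such drop in ATRXfl_G34R replicate 3.

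Oligodendrocyte progenitor genes were lower in 16 of 18, with a median of -0.39 and 0 calls, and this rested on 1 tumour. Pdgfra (ENSMUSG00000029231; chromosome 5, 75152292 to 75198215), the receptor for the PDGFA that drives the tumours, stood at 179, 4310, 4450, 1958 and 2494 CPM in the upper group. In the lower it stood at 2025, 3839, 3494, 2150 and 4470 CPM. Sox10 (chromosome 15, 79154908 to 79165240), a transcription factor of the lineage, stood at 82.7, 987, 973, 1322 and 998 CPM, and from 936 to 1589 CPM in the 10 others. Cspg4, the NG2 proteoglycan, stood at 72.6 CPM in p53_WT replicate 3 and at 686 to 2088 CPM elsewhere. Sox10 and Cspg4 were named after their values were seen. Neu4, C1ql1, Matn4 and Lhfpl3 had the largest differences of the list, from -0.95 (SE 0.89) to -0.83 (SE 0.87). p53_WT replicate 3 was the lowest tumour for 16 of the 18 genes, and for 3686 of all 15397. It lay a median of 2.63 below the mean of the lowest 5 (-2.63) over the list. ATRXfl_G34R replicate 3, second by score, lay above that mean by a median of 0.55. Without p53_WT replicate 3 the median was 0.09, with 12 of 18 members above 0, and without both tumours it was -0.08, with 7 above 0.

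Progenitor genes were part of a wider set of genes that were low in p53_WT replicate 3. In that tumour 70 genes (0.455%) were at least 4-fold below every other tumour and 403 (2.62%) at least 4-fold above, on the CPM + 1 scale. In the other 14 tumours 0 to 11 genes were that far below and 0 to 99 that far above, and ATRXfl_G34R replicate 3 had 0 and 5. The genes named from these 70 were chosen after their values were seen. The largest gap was that of Cdkn2a (chromosome 4, 89274471 to 89294653), which encodes the cell cycle inhibitors p16Ink4a and p19Arf. It stood at 2.69 CPM in p53_WT replicate 3, 108, 538, 280 and 235 CPM in the next 4 by score and 86.5 to 360 CPM in the 10 others. Its neighbour Cdkn2b (chromosome 4, 89306299 to 89311039) stood at 2.10 CPM against 28.7 to 177 CPM. The transcription factor genes Irx1 and Irx2 stood at 0.280 and 0.168 CPM, against at least 24.1 and 11.6 CPM. Dll3, a Notch ligand, stood at 2.86 CPM against at least 60.4 CPM.

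The gene of the driver was also among the 70. Pdgfa (chromosome 5, 138976014 to 138997370) stood at 40.6, 620, 2238, 756 and 1703 CPM in the upper group and at 589, 857, 1090, 443 and 941 CPM in the lower. How many of these reads came from the delivered PDGFA was not tested. Of the 70 genes, 7 were on the progenitor list and 0 were among the 6 genes below in the group comparison. Etv4 and Spry1, known targets of growth factor signalling, were also among the 70, at 20.0 and 24.6 CPM against at least 127 and 167 CPM. So were the matrix genes Vcan (62.3 CPM against at least 493.2 CPM), Fbn2 (5.41 against at least 39.4 CPM) and Adam12 (16.03 against at least 144 CPM). The pancreatic lipase gene Pnlip, an unusual transcript for brain, stood at 2.80 CPM against 45.0 to 417 CPM in the other 14.

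Taking the 2 tumours of highest score together, 37 genes (0.24%) lay below all other 13 tumours with means at least 2-fold apart, and 501 (3.25%) lay above. The 501 included 38 of the 45 genes above in the group comparison, and the 37 included 0 of the 6 below. Genes of these 37 were likewise chosen after their values were seen. Tcfl5 (chromosome 2, 180621956 to 180642708), a transcription factor, led, at 0.336 and 0.713 CPM against 2.55 to 75.9 CPM. Mex3a, an RNA-binding protein of progenitors, stood at 6.62 and 50.1 CPM against 54.4 to 119 CPM. The basement membrane genes Col18a1 (45.3 and 153 CPM against 154 to 750 CPM) and Hspg2 (84.8 and 227 CPM against 240 to 1309 CPM) and the protease inhibitor gene Serpine2 (255 and 1092 CPM against 1097 to 2470 CPM) followed. In Mex3a, Col18a1, Hspg2 and Serpine2, ATRXfl_G34R replicate 3 lay just under the lowest of the 13 and p53_WT replicate 3 far under it. The 37 and the 70 genes shared 3.

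Engineered genes and their partners were lower in 6 of 8 (median -0.38, and -0.04 without p53_WT replicate 3). Atrx, the targeted gene, was at 169, 115, 295, 48.9 and 72.0 CPM in the upper group, where p53_WT replicates 3 and 4 are Atrx-intact. In the lower group it was at 191, 104, 73.9, 85.3 and 87.3 CPM, where only the first is intact. Trp53 stood at 41.9, 27.3, 27.2, 36.5 and 30.8 CPM, against 45.8, 33.8, 22.5, 77.2 and 61.7 CPM. Its target Cdkn1a, a cell cycle inhibitor, stood at 48.6 to 228 CPM and 73.0 to 247 CPM. The H3.3 gene H3f3b differed by -0.51 (SE 0.36), H3f3a by -0.21 (SE 0.20) and Daxx, the partner of Atrx, by 0.08 (SE 0.18). The 8 genes include Pdgfra and Pdgfa, described above.

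Notch pathway genes were lower in 16 of 18, with a median of -0.42 and 0 calls. Dll3 stood at 2.86, 667, 73.5, 1357 and 475 CPM in the upper group, and at 73.5, 857, 675, 486 and 783 CPM in the lower, where the first is Atrx-intact. Among these 10 tumours Dll3 was at 73.5 CPM in both intact tumours other than p53_WT replicate 3 and at 475 CPM or more in every floxed one. Dll4, a ligand of vessel sprouts, was at 222 CPM in ATRXfl_WT replicate 1 and at 6.56 to 49.8 CPM in all others. Jag2 differed by -0.72 (SE 0.44), Hey2, a Notch target, by -0.71 (SE 0.55) and Ncstn, a subunit of gamma-secretase, by -0.63 (SE 0.24). Without p53_WT replicate 3, the lowest tumour for 10 of the 18 (and for 3686 of all 15397 genes), the median was -0.18. Leaving out the 2 highest tumours gave a median of -0.33, with 4 of 18 above 0. Hoxa cluster genes were lower in 5 of 6 (median -0.32). All 6 had their lowest value in p53_WT replicate 3, where Hoxa2, Hoxa4, Hoxa5 and Hoxa7 were at 0 CPM, and without it the median was 0.28. Neural stem and progenitor genes were lower in 10 of 17, with a median of -0.06.

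Genes of vessels and matrix were lower on average in the upper group. Endothelial genes were lower in 15 of 17 (median -0.54) and mural and fibroblast genes in 14 of 17 (-0.53, with Col5a1 called). Matrix and invasion genes were lower in 14 of 16 (-0.86). In p53_WT replicate 3 the 3 lists stood at medians of -0.1, 0.23 and -1.47 from the mean of the lowest 5. In ATRXfl_G34R replicate 3 they stood at -0.71, -0.75 and -1.22. Mmp9, a matrix protease, stood at 2.21, 7.21, 6.03, 17.8 and 40.9 CPM, against 27.6, 118, 98.5, 348 and 16.6 CPM, and differed by -2.76 (SE 0.9976). Postn, periostin, stood at 16.2, 37.2, 46.3, 35.6 and 88.1 CPM, against 576, 105, 83.6, 511 and 107 CPM, and differed by -2.29 (SE 0.72). The basement membrane collagen gene Col4a1 stood at 443, 600, 480, 567.8 and 1292 CPM, against 646, 1743, 1414, 6702 and 730 CPM. Esm1 and Angpt2, genes of sprouting vessels, differed by -1.37 (SE 1.56) and -1.19 (SE 0.91).

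ATRXfl_WT replicate 1, a tumour of the lower group, stood apart in these lists. Its endothelial genes summed to 5366 CPM, against 669 to 1438 CPM in the other 4 of the lower group and 691 to 1733 CPM in the upper. Rgs5, a pericyte gene, was at 2178 CPM there and at 34.3 to 486 CPM elsewhere. Without ATRXfl_WT replicate 1 the medians were 0.01 for endothelial, -0.10 for mural and fibroblast and -0.55 for matrix genes. Without the 2 tumours of highest score they were -0.63, -0.70 and -0.59. Erythroid genes, which mark blood, were lower in 5 of 5 (median -1.50). They summed to 39.2 CPM in p53_WT replicate 3 and 20520 CPM in ATRXfl_WT replicate 1, and the median without the first was -0.37. With a score of Mobp alone or of Snap25 and Syt1 alone the direction turned, with 5 of 5 higher (medians 0.38 and 0.75). Blood content was not matched between the groups, and its part in the vessel results was not tested.

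Hypoxia and glycolysis genes were lower in 15 of 20 (median -0.38). Their leading member Car9, a carbonic anhydrase induced by low oxygen, was at 232 CPM in p53_G34R replicate 1 of the lower group and at 0.316 to 12.9 CPM in all others. Adm differed by -0.92 (SE 0.69) and the glucose transporter gene Slc2a1 by -0.61 (SE 0.37). Without p53_G34R replicate 1 the median was 0.10. Immediate early genes, which respond within minutes to handling and activity, were lower in 8 of 11 (median -0.56). Fos stood at 24.02, 80.1, 164, 669 and 237 CPM, against 294, 401, 92.0, 530 and 139 CPM. Without the 2 highest tumours that median was 0.03.

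Replication and mitosis genes were slightly higher, in 32 of 32, with a median of 0.29 and 0 calls. p53_WT replicate 3 went the other way, with a median of -1.12 from the mean of the lowest 5. It had the lowest value of all 15 tumours for 13 of the 32, and for 3686 of all 15397 genes. Top2a, a topoisomerase of dividing cells, stood at 82.8, 304, 532, 509 and 265 CPM in the upper group. In the lower it stood at 238, 364, 428, 74.4 and 131 CPM. E2f1 (0.61, SE 0.35), Kif11 (0.56, SE 0.74) and Pcna (0.52, SE 0.34) had the largest differences. Without the 2 highest tumours the median was 0.77, and for those 2 alone against the lowest 5 it was -0.37, with 3 of 32 above 0. With a score of Mobp alone it was -0.47, with 1 of 32 above 0, so the direction of this list depends on which tumours are taken.

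Interferon-stimulated and antigen presentation genes were higher in the upper group, and did not follow the score within it. Interferon-stimulated genes were higher in 16 of 16 (median 1.27) and antigen presentation genes in 13 of 13 (1.02), each with 0 calls. Isg15, a ubiquitin-like protein induced by interferon, stood at 78.8, 46.7, 55.4, 101 and 58.2 CPM, against 95.4, 6.68, 7.01, 17.03 and 26.1 CPM. Zbp1, a nucleic acid sensor, differed by 1.90 (SE 0.86) and Ifi44 by 1.65 (SE 0.65). Cd74, the invariant chain of class II antigen presentation, stood at 444, 691, 915, 913 and 646 CPM, against 1205, 241, 156, 433 and 123 CPM. Nlrc5, a regulator of class I genes, differed by 1.59 (SE 0.81) and the class II gene H2-Eb1 by 1.30 (SE 0.57). In Isg15, Zbp1 and Ifi44, p53_G34R replicate 1 of the lower group and ATRXfl_WT replicate 4, of the tumours between, lay within or above the range of the upper group. Over the antigen presentation list p53_WT replicate 3 stood at a median of -0.04 from the mean of the lowest 5, and ATRXfl_G34R replicate 3 at 1.56. Without the 2 highest tumours the medians were 1.29 and 1.17. With TMM scaling, which changes a member of the upper group, they were 0.78 and 0.62.

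Other blood cell lists were sparse. Neutrophil genes were lower in 4 of 5 (median -0.62), with S100a9 at 35.7 CPM in p53_G34R replicate 1. T and NK cell genes were lower in 2 of 2 (-0.27) and choroid plexus genes higher in 4 of 4 (0.63), where Ttr stood at 21.0 CPM in ATRXfl_G34R replicate 4 and at most 2.13 CPM elsewhere. Cytosolic ribosomal protein genes split 6 and 6 (median -0.01), and respiratory chain genes were higher in 12 of 12 by a small amount (0.18).

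**Figure D4:**
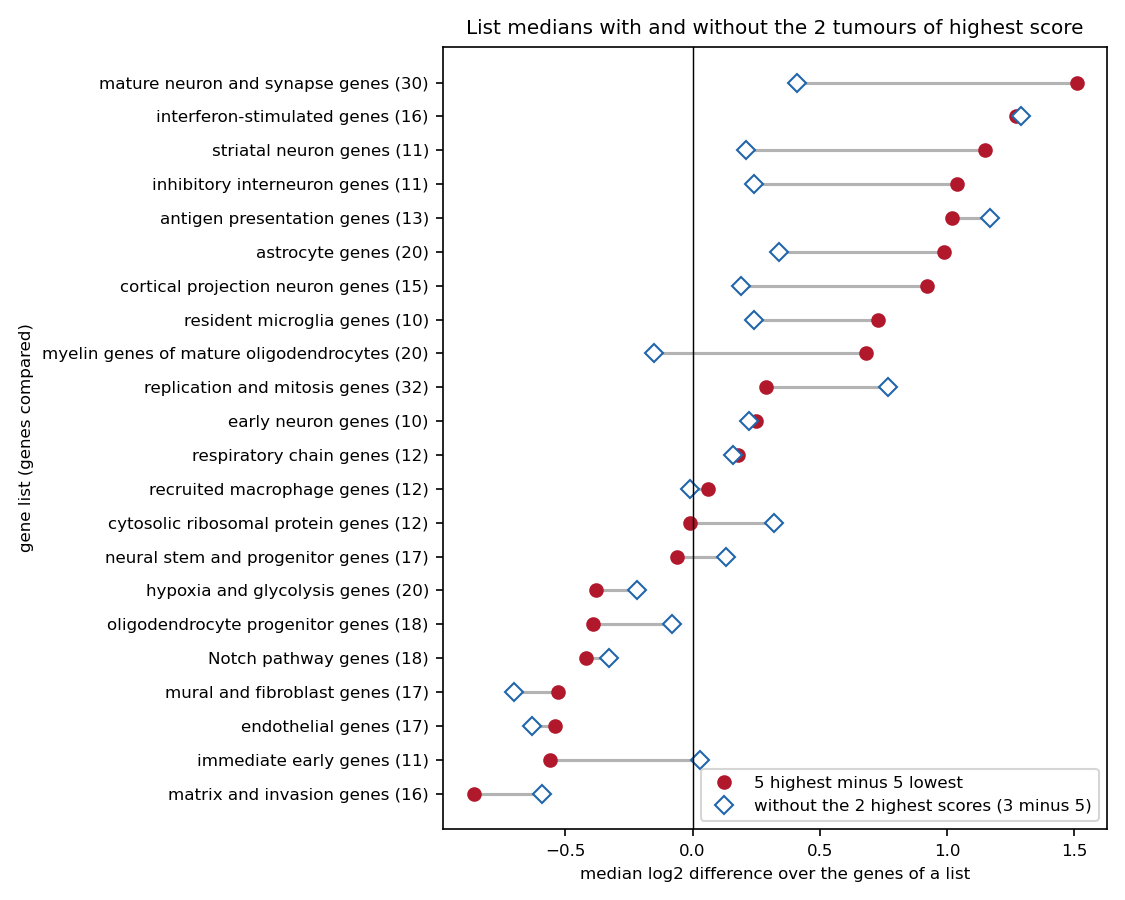
Points give the median log2 difference over the genes of each list with at least 10 genes compared, as the 5 tumours of highest score minus the 5 of lowest (red) and as the same without the 2 highest (open blue). Neuronal, astrocyte and myelin lists move towards 0 or past it, while the interferon-stimulated list stays at 1.27 and 1.29.

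The design contrasts come from labels that the score did not use, so they were tested with limma over all 15 tumours, with and without the score as a covariate. Atrx floxed against intact gave 18 genes (0.117%; 8 higher, 10 lower) at an adjusted p under 0.05 without the score. With it there were 19 (0.123%; 9 higher, 10 lower), 16 genes passed both ways, and their signs did not change. Atrx (chromosome X, 105797615 to 105929403), the targeted gene, had a mean of 87.4 CPM in floxed and 247 CPM in intact tumours. It fell by 1.49 on the log2 scale (SE 0.20; limma adjusted p = 0.00369), and by 1.52 (SE 0.20; limma adjusted p = 0.00437) with the score. Dll3 (chromosome 7, 28293553 to 28302238) was the called gene whose estimate moved most among those named. It was higher by 3.84 (SE 0.57; limma adjusted p = 0.00975) without and 3.55 (SE 0.44; limma adjusted p = 0.00275) with the score, and its lowest value lay in p53_WT replicate 3, the intact tumour of highest score.

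Selenov, a selenoprotein gene, rose by 4.14 (SE 0.27; limma adjusted p = 1.93e-06) and by 4.18 with the score. Eid2 rose by 1.13 (SE 0.14) and Csf2ra, a receptor chain for GM-CSF, was lower by a log2 change of -1.77 (SE 0.25). Dll3, Selenov, Eid2 and Fbl, a nucleolar methyltransferase gene that rose by 1.78, lie within 0.13 Mb on chromosome 7 (28169710 to 28302238). Scoc passed only without the score (limma adjusted p = 0.0481, and 0.0800 with it). Vit, Pop4 and Kctd8 passed only with it (limma adjusted p = 0.0298, 0.0283 and 0.0281, against 0.117, 0.793 and 0.163 without). Pop4, a subunit of RNase P, moved from -0.75 (SE 0.26) to -0.91 (SE 0.15). Dll3, Fbl, Csf2ra, Scoc, Vit, Pop4 and Kctd8 were named after their values were seen. Called genes with the smallest p also included Tdpx-ps1 (2.06), Gm13394 (5.002) and Gm5141 (-2.05), pseudogenes or predicted genes whose reads may be shared with near-identical copies. Whether effects differ between the fits was not tested.

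H3.3G34R against H3.3WT gave 0 genes (0%) by limma without the score and 0 (0%) with it. At an unadjusted limma p under 0.05 there were 329 and 446 of 15397 genes. Both counts are fewer than a share of 0.05 of the genes, which this threshold would pass with no effect. edgeR gave 0 both ways and DESeq2 gave 8 and 14. The median size of the log2 change over all genes was 0.174 without and 0.175 with the score for Atrx. For the histone it was 0.155 and 0.158.

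**Figure D5:**
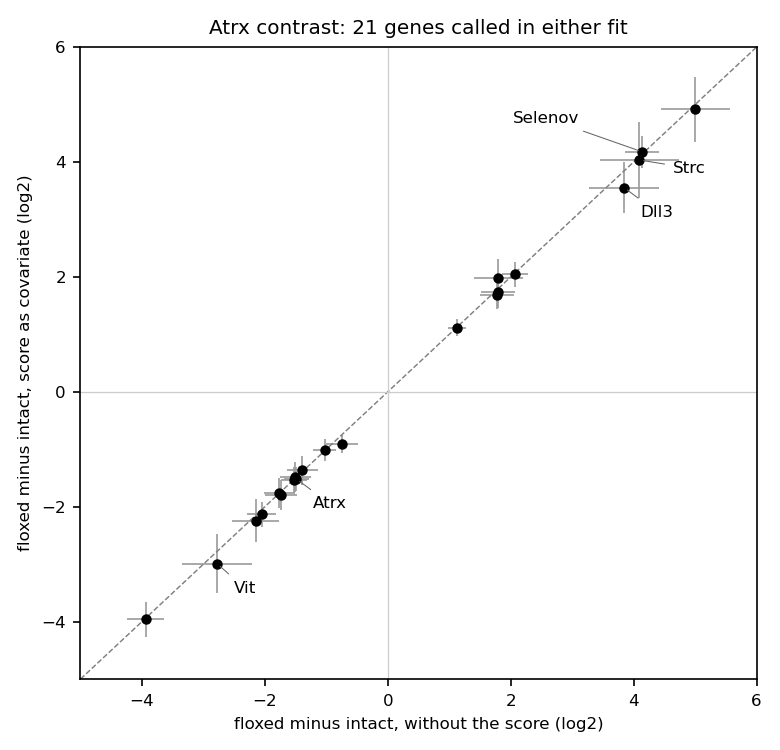
Each point is 1 of 21 genes called by limma in either fit, with the log2 difference of floxed minus intact tumours without the score on the horizontal axis and with the score as covariate on the vertical axis, and bars of 1 SE. The points lie near the dashed line of equality, from Selenov at 4.14 and 4.18 to Vit at -2.78 and -2.99, with 1 predicted gene beyond at either end.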

How the data were processed

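TruSeq mRNA libraries of 15 tumours were sequenced, and the submitters' processing notes name STAR 2.7, HTSeq, DESeq2 and mm10. For the rest (versions, settings, strandedness, gene annotation) nothing was given in the sources consulted. The deposited values are a signal, read counts divided by a size factor per library within each of 5 tables (54232 genes). The tables also hold, per the file headers, the authors' own log2 fold changes with their standard errors, a Wald score and p-values, none of which was used. Every value was a whole multiple of 1 read (100% within 0.01), so reads were recovered by division and expressed as CPM. In 3 columns 1 read was worth nearly 1, and those columns were not used. GENCODE vM21 gave 54079 IDs (99.7%) a symbol.

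Upper and lower groups were compared by the difference of mean log2(CPM + 1), with no test. SE is that of the difference of means. The 32 gene lists (434 symbols, 400 compared) were written from general knowledge. The members and lists were chosen with earlier results of these data known. Genes named are the engineered genes, up to 12 in each direction with the largest difference among genes that do not overlap (mean at least 5 CPM, again for lower genes at 50 CPM), up to 5 per list, and up to 4 per tested contrast and direction. Any others were chosen after their values were seen. Some genes that this rule gives are not reported here.

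Design contrasts used limma 3.58.1 in R 4.3.3 (trend and robust, additive Atrx and histone, Benjamini-Hochberg over 15397 genes), with edgeR 4.0.16 and DESeq2 1.42.0 as alternatives on the recovered counts, which were computed from the deposited signal. Python 3 scripts with pandas made the rest. Procedures were tested on simulated data. Other alternatives were pseudocounts of 0.5 and 5, other filters and scalings, 4 or 3 tumours a side, other scores and each tumour left out. Leaving out the 2 highest scores together, and comparing them alone, was added after the data were seen.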

Additional observations from a re-analysis of the deposited data

Results flagged for a closer look

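Of 193 groups of 4 or 5 tumours looked at, 18 had a tumour set apart by a gap above the limit of Dixon's test for that group size. In a single group of independent values chance gives about 1 in 20. These groups share tumours, and some were chosen by the score and hold its genes, so the 18 cannot be set against that rate. Of the 18, 10 were p53_WT replicate 3. Values given are the gap as a share of the group's range. The groups of 5 were selected on the score.

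Among the 5 tumours of highest score, p53_WT replicate 3 was apart in Pdgfra (0.744, low), in oligodendrocyte progenitor genes (0.754, low) and in cerebellar genes (0.718, low). It was apart as the high tumour in cortical projection neuron (0.908), striatal (0.825) and olfactory bulb genes (0.721). Among the 4 p53_WT tumours it was apart in interneuron (0.868, high), striatal (0.926, high), early neuron (0.935, high) and Notch pathway genes (0.913, low). ATRXfl_G34R replicate 3 was apart as the high one in T and NK cell genes among the upper 5 (0.724), and ATRXfl_G34R replicate 4 in interferon-stimulated genes (0.731, high).

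In the 4 ATRXfl_G34R tumours, replicate 2 was low in interferon-stimulated genes (0.849), and replicate 3 was low in the engineered genes and their partners (0.875). In the 4 ATRXfl_WT tumours, replicate 1 was low in Pdgfa (0.836) and replicate 2 low in oligodendrocyte progenitor genes (0.923). Among the lowest 5, p53_G34R replicate 1 was low in cerebellar (0.754) and olfactory bulb genes (0.725).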

How the results depend on the processing

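The count of genes above (45) and below (6) moved with most settings. List medians moved by less than 1 SD between tumours of a group in 691 of 703 cases. That SD includes the spread that p53_WT replicate 3 adds, so it is a loose limit and does not show that medians were stable. Within it, leaving out the 2 highest scores took mature neuron genes from 1.51 to 0.41 and myelin genes from 0.68 to -0.15. The counts above and below were 24 and 25 at a pseudocount of 0.5, 24 and 23 with TMM, 21 and 23 with the median of ratios, and 29 and 14 for a score of Snap25 and Syt1 alone. They were 182 and 66 with 4 tumours a side and 581 and 197 with 3, where fewer tumours make it easier not to overlap. A filter at a mean of 5 CPM gave 26 above, and a score of Mobp alone gave 11 below. With 1 tumour left out the counts ranged from 40 to 150 above and from 9 to 30 below. The extremes came without p53_WT replicate 3 (40) and ATRXfl_G34R replicate 4 (150), and without ATRXfl_WT replicate 1 (9) and ATRXfl_G34R replicate 1 (30). Added after the data were seen, leaving out the 2 highest scores gave 28 below, and those 2 against the lowest 5 gave 903 and 225. With Mobp alone as score, Resp18 became -0.11 and Rbpms 0.10. That score also turned lists: replication and mitosis genes went from 32 to 1 of 32 higher, erythroid from 0 to 5 of 5, neutrophil from 1 to 5 of 5 and Hoxa genes from 1 to 5 of 6. Erythroid genes also went to 5 of 5 with Snap25 and Syt1 alone. For Atrx, DESeq2 gave 69 genes without and 90 with the score, and with the score both edgeR and no filter gave 12. For the histone DESeq2 gave 8 and 14. With 1 tumour left out, Atrx gave 14 to 23 genes without and 11 to 22 with the score (11 without p53_G34R replicate 2). For these counts the cause was not tested. No paired analysis was possible because replicate numbers only follow the order of the samples.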

Other observations

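Of the 45 genes above in the comparison of 5 against 5 tumours, 4 were highest in ATRXfl_G34R replicate 3 and not in p53_WT replicate 3. They were Ermn, Slc17a6, the serotonin receptor gene Htr2c (15.1 CPM in p53_WT replicate 3 and 21.4 CPM in ATRXfl_G34R replicate 3) and Rspo1, a secreted activator of Wnt signalling (7.01 and 7.73 CPM). Aldh1a1, an enzyme of retinoic acid synthesis, was close in both tumours (70.04 and 52.3 CPM). Ndrg4 (1552 and 178.8 CPM) and Ncs1 (472.8 and 53.5 CPM), genes of mature neurons, differed far more between them. These genes were named after their values were seen, and no difference between the 2 tumours was tested.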
